A study of Mus musculus with 287 samples.

Results

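This account covers 8 genes of the machinery that releases synaptic vesicles, Snap25, Vamp2, Syt1, Syt4, Syn1, Syp, Slc17a7 and Slc17a6, read by symbol out of the 55359 genes of an exon count table of mouse cerebral organoid cells. All 8 symbols matched a single gene ID, and all 8 passed the filters on low counts in each comparison of groups below. Levels come from the 86.1% of deposited cells that carry a clone label and in which 1000 or more genes were counted. The study measured single cells by Smart-seq3, a full-length RNA sequencing method, and its labels give each cell a clone, a clone type (SN or N), a colour (green or red), a plate and a clone size.

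SN clones and N clones share genotype and treatment. Both came from organoids of mouse embryonic stem cells with the alleles MADM-11GT/TG;Emx1-CreER+/-, given 60 nM 4-hydroxytamoxifen (4-OHT) on day 13 and collected on day 20. MADM is a recombination system in which a dividing progenitor can leave 1 daughter green and the other red. Here it sits on chromosome 11 and is set off by a Cre that needs tamoxifen and is driven from Emx1, a gene of cortical progenitors, so that clones outside that lineage are not marked. Cells were drawn from located clones with a pipette. The labels do not say what SN and N stand for, and name no organoid or culture, so clones may share an organoid. In the comparisons of clone sums, a p-value measures variation among clones alone. A further test, of the spread between clones, was run on single cells and sets clones against the cells within them.

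SN clones gave 49, 42 and 40 kept cells on plates 1, 2 and 3, and N clones 41, 38 and 37. Their exon counts ran from 10405 to 12162373 per cell (median 1365828) in SN clones and from 6171 to 13040432 (median 1887116.5) in N clones. Groups were compared on counts summed over the kept cells of a clone, in 42 SN clones and 20 N clones with at least 2 kept cells each. Markers of cortical excitatory neurons were present, with Neurod6 counted in 87% of SN and 87.9% of N cells, and so were radial glia genes, with Fabp7 in 96.2% of SN and 94.8% of N cells. Genes that mark other cell types were also counted, the 6 mesenchymal genes of the list in 9.7% (Pdgfrb) to 36.8% (Col3a1) of kept cells and the 6 oligodendrocyte-lineage genes in 8.5% (Cspg4) to 51.4% (Olig1). By clone type, some were near equal: Col3a1 was counted in 35.9% of SN and 37.9% of N cells, and Lum, also mesenchymal, in 26.0% and 26.7%. Others were less even, with the mesenchymal gene Col1a1 in 23.7% of SN and 37.1% of N cells and Dcn in 19.8% and 25.0%. Of the 6 mesenchymal genes, Pdgfrb alone was counted in a larger share of SN cells, at 10.7% against 8.6% of N cells. Of the oligodendrocyte-lineage genes, Olig1 was counted in 51.9% of SN and 50.9% of N cells, and Olig2 in 35.9% and 27.6%. Shares of cells with a count are therefore read against these values, and their part in the results was not tested.

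At a chemical synapse, vesicles loaded with transmitter dock at the active zone and fuse when calcium enters. Fusion is driven by SNARE proteins, of which Vamp2 sits on the vesicle and Snap25 on the plasma membrane, and Syt1 is the calcium sensor that triggers it. Syt4 is a synaptotagmin of secretory and dense-core vesicles that binds calcium weakly or not at all through one of its domains. Syn1 tethers vesicles in the reserve pool, Syp is an abundant membrane protein of the vesicle, and Slc17a7 (VGLUT1) and Slc17a6 (VGLUT2) load glutamate. Many of these genes are held down outside neurons by the repressor Rest.

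The RefSeq promoter table of mouse (GRCm38.p6) held 5 of the 8 genes, Syt1, Syn1, Syp, Slc17a7 and Slc17a6. The 250 bases before the start of Syn1 are shown because they hold a sequence that is bound by Rest in textbook accounts, and those of Slc17a7 because the glutamate transporters had the lowest levels. Capitals mark, in Syn1, the left arm of the Rest site (TTCAGCACC) and the cyclic AMP response element (TGACGTCA), and in Slc17a7 the GC box (GGGCGG, or CCGCCC when read from the other strand, with a pair of overlapping matches near the start).
Syn1 (chrX:20920919-20921168, minus strand): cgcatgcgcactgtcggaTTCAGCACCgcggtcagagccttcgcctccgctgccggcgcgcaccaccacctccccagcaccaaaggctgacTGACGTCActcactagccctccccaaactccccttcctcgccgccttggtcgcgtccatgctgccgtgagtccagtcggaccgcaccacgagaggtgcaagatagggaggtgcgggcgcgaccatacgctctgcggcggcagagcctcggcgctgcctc
Slc17a7 (chr7:45163671-45163920, plus strand): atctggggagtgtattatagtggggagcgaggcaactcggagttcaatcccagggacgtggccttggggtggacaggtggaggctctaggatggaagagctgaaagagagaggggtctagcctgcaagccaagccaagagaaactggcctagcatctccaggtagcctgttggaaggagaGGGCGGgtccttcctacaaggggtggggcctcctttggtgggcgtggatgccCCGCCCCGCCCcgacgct
Both strands of 300-base windows (250 before and 50 after the start) of 32851 mouse promoters were searched. The Rest arm stood in 0.37% of them and, among the members in the table, in Syn1. The cyclic AMP response element stood in 1.79% and, of the members, likewise in Syn1. The GC box stood in 35.66%, including a promoter each of Syt1, Syp, Slc17a7 and Slc17a6, and the E-box CAGNTG in 51.42%, including Syt1, Slc17a7 and Slc17a6. These are matches of letters only.

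The SNARE genes, both synaptotagmins, Syn1 and Syp were counted in most cells, and the glutamate transporters in fewer. Levels are exon CPM, a gene's share of the exon counts of a cell or clone times 1e6, and shares of cells with a count carry 95% Wilson intervals that cover counting error only. Snap25 was counted in 81.8% of all kept cells (76.5 to 86.1) and Vamp2 in 80.2% (74.7 to 84.7). Syt4 was counted in 83.8% (78.7 to 87.9) and Syt1 in 71.7% (65.7 to 76.9). Syn1 had a count in 66.4% of cells (60.3 to 72) and Syp in 65.6% (59.5 to 71.2). Slc17a7 had one in 42.5% (36.5 to 48.7) and Slc17a6 in 32.8% (27.2 to 38.9). Of the 12 mesenchymal and oligodendrocyte-lineage genes above, Olig1 was counted in a larger share than Slc17a7, and Olig1 and Col3a1 in a larger share than Slc17a6. A threshold of 3 counts gave 76.5% for Snap25, 36.8% for Slc17a7 and 28.7% for Slc17a6. All 8 genes had a count in 34 cells (13.8%), 7 of them in 61 (24.7%), and 4 cells had a count in none.

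Per kilobase of exon (exon lengths from GENCODE M21, an annotation of an older build than the counts), Syt4 stood highest of the 8. Averaged over the 62 clones, the level was 93.95 ± 96.2 CPM per kilobase (SD) for Syt4, 32.2 ± 19.1 for Vamp2, 25.9 ± 18.3 for Snap25 and 19.5 ± 18.3 for Syp. It was 16.3 ± 13.8 for Syt1, 16.1 ± 21.7 for Syn1, 4.85 ± 9.66 for Slc17a6 and 2.98 ± 3.49 for Slc17a7. Each difference between neighbours in this order was within the SD of the higher gene. Syt4 was above Vamp2 in 45 of the 62 clones and Vamp2 above Snap25 in 41. Syp was above Syt1 in 33 clones and below it in 29, and Slc17a6 was above Slc17a7 in 27 and below it in 27, so these neighbours had no order. The order also depended on the division by length, which used all annotated exons (6.79 kilobases for Snap25 and 3.81 for Vamp2). Undivided, the mean over kept cells was 377.7 CPM for Syt4, 198.8 for Snap25, 135.3 for Syt1 and 119.4 for Vamp2. The counts were concentrated in few cells: the 24 cells with the highest level held 39.6% of the summed CPM of Vamp2, 47.6% of that of Syt4, 70.9% of that of Slc17a7 and 86.2% of that of Slc17a6.

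**Figure D1:**
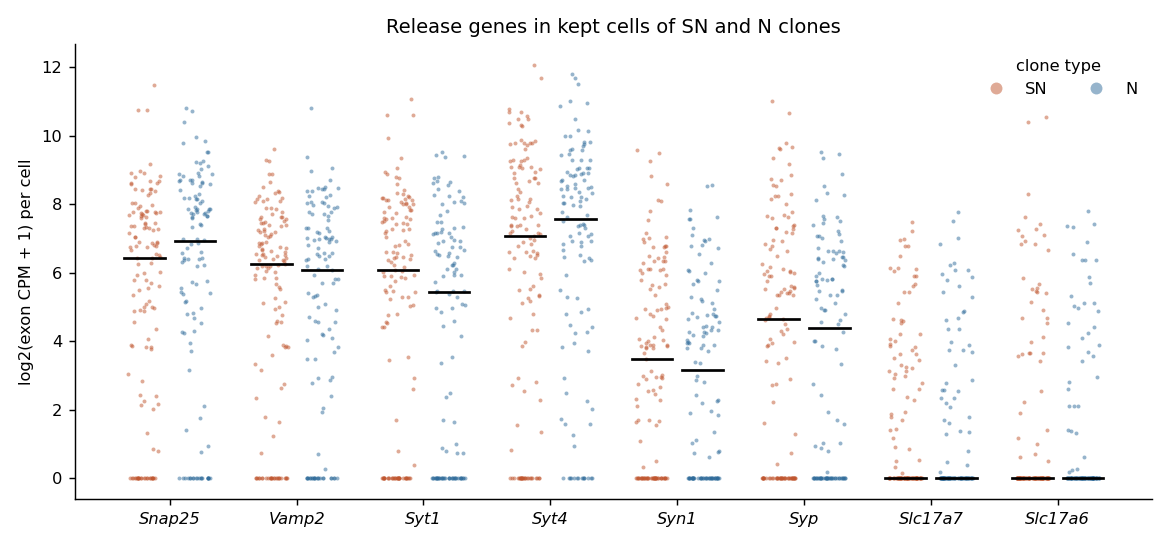
Exon CPM of each of the 8 genes in every kept cell, as log2(CPM + 1), for the cells of SN clones (left of each pair) and of N clones (right); the black bars are medians. Cells without a count form the row at 0, which holds the medians of Slc17a7 and Slc17a6 in both clone types.

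The transporters for glutamate were counted in some of the same cells, and in some cells with genes of GABA synthesis or transport. Of the kept cells, 60 (24.3%) had a count of Slc17a7 alone, 36 (14.6%) of Slc17a6 alone, 45 (18.2%) of both and 42.9% of neither. Gad1, which makes GABA, was counted in 58 cells, of which 38 also had Slc17a7 and 35 had Slc17a6. Slc32a1, the vesicular GABA transporter, was counted in 36 cells, 26 of them with Slc17a7 and 21 with Slc17a6. At an equal depth of 100000 exon counts per cell, which 22 of the kept cells did not reach, Gad1 was counted in 38 cells, 17 of them with Slc17a7, and Slc32a1 in 14, 6 of them with Slc17a7. Slc17a8, the remaining vesicular glutamate transporter, was counted in 17 kept cells, 11 of them with Slc17a7 and 10 with Slc17a6, and at the equal depth in 5 cells, 0 of them with Slc17a7 and 3 with Slc17a6. Over all cells, Slc17a7 was counted in 42.5% of kept cells and 30.7% at the equal depth, and Slc17a6 in 32.8% and 24.4%. Both also moved with the number of genes detected at the equal depth (rank correlation 0.29 and 0.23). Whether the overlaps exceed what these shares and that number would give was not tested.

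The order in which the genes appear was read along a neuronal score, the mean log2(CPM + 1) of 13 neuronal genes minus that of 14 radial glia genes, in the cells thinned to 100000 exon counts. The score ran from −1.52 to 9.03 and cells were cut into 5 bins of 45 by its rank. Along it, Fabp7 went down (Spearman rho −0.63) and Stmn2, a neuronal growth cone gene that is part of the score, went up (0.34). The lowest bin was not free of neuronal RNA, as Stmn2 had a count in 40 of its 45 cells (88.9%). Of the members, 5 had a count in more than 50% of the cells of this bin. They were Syt4 in 32 of 45 cells (71.1%), Vamp2 in 31 (68.9%), Snap25 in 30 (66.7%), Syt1 in 29 (64.4%) and Syp in 26 (57.8%). This count of members was not set beside the share of all genes past 50% in the bin. Syn1 had a count in 17 cells (37.8%) of the lowest bin and in 24 (53.3%) of the second. Neither glutamate transporter reached 50% in any bin.

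Between the highest and the lowest bin the intervals of the shares overlapped for all 8 genes. In the highest bin Syt4 was counted in 84.4% of cells, Snap25 and Vamp2 in 77.8% each, Syt1 in 73.3%, Syp in 57.8% and Syn1 in 46.7%. Slc17a7 was counted in 35.6% of the cells of the highest bin and 28.9% of those of the lowest, and Slc17a6 in 31.1% and 13.3%. Levels are given as medians, since single cells reached 2920 CPM of Snap25 and 2240 CPM of Syt1 in the lowest bin and 1600 CPM of Slc17a6 in the highest. The median of Snap25 was 160 CPM in the highest bin and 40 CPM in the lowest, that of Syt4 210 and 40 CPM, that of Vamp2 120 and 50 CPM and that of Syt1 70 and 40 CPM. The median of Syp was 10 CPM in both bins and that of Syn1 0. In bins 2, 3 and 4, counted from the lowest, the median was 30, 40 and 30 CPM for Syp and 10, 0 and 30 CPM for Syn1. Syn1 was counted in 68.9% of the cells of bin 4 (54.3 to 80.5). This interval lay above that of Syn1 in the lowest bin (37.8%, 25.1 to 52.4). The median of both transporters was 0 in every bin. These are descriptions of cells that share clones and plates, with no test.

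**Figure D2:**
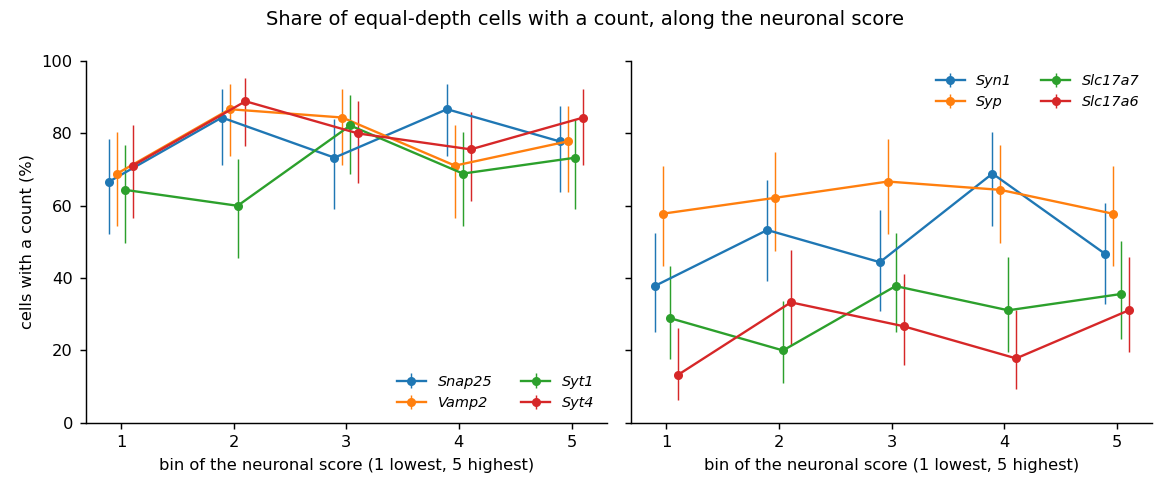
Share of cells with a count (%) in 5 bins of 45 cells along the neuronal score, at 100000 exon counts per cell; left, the SNARE and synaptotagmin genes, right, Syn1, Syp and the glutamate transporters, with 95% Wilson intervals. Syt4, Vamp2, Snap25, Syt1 and Syp start above 50% in the lowest bin, and no gene climbs steadily from bin to bin.

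As rank correlations with the score over all thinned cells, the members lay between 0.07 and 0.29. Snap25 had the highest (0.29), above 99.4% of the 6942 genes counted in at least 25% of these cells, whose rho had a median of −0.01 and a 95th percentile of 0.15. Syt4 (0.15), Syn1 (0.14), Slc17a7, Vamp2 and Syt1 (0.11 each) came next, then Syp and Slc17a6 (0.07 each). Slc17a6, counted in 24.4% of these cells, was not itself among the 6942. Plates moved with the score: 26 of the 45 cells of the lowest bin were of plate 2, and 29 of the 45 of the highest were of plate 1. Clone types were uneven as well, with 33 SN and 12 N cells in the lowest bin, 18 and 27 in the second, and 22 and 23 in the highest. Within plates 1, 2 and 3 taken separately, rho was 0.13, 0.21 and 0.52 for Snap25 and −0.05, 0.26 and 0.40 for Syt4. Within the 22 clones of at least 4 such cells, the median rho was 0.00 for Snap25 (above 0 in 10 clones and below in 10) and 0.09 for Syt4. With neuronal genes alone as the score, rho was higher for all 8 members, between 0.17 for Slc17a6 and 0.43 for Snap25 (Vamp2 0.39, Syt4 0.34, Syt1 and Syp 0.33, Syn1 0.31, Slc17a7 0.27). These values were not set beside those of all genes, so the rise cannot be read as particular to the members. With this score 2 members, not 5, passed 50% in the lowest bin.

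Rest itself was counted in 13.3% of the cells of the highest bin and 24.4% of those of the lowest, with 33.3% in the fourth. Its rho with the score was −0.07. Syn1, whose promoter carries the arm of the Rest site shown above, had a rho of −0.02 with Rest over the thinned cells, and the other members between 0.00 and 0.19.

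SN and N clones were compared to ask whether the clone types differ in these genes. None of the 8 passed edgeR's quasi-likelihood test at an adjusted p of 0.05, and none of the 11914 genes tested did (0% called), although 2.06% had an unadjusted p below 0.05. A difference in a clone sum cannot tell fewer cells with the RNA from less RNA per cell. Snap25 ran from 2.11 to 571.9 CPM (median 148.99) in SN clones and from 73.7 to 508.0 CPM (median 206.6) in N clones. The ranges overlapped, and the lowest clones were SN. Its log2 difference, SN minus N, was −0.67 ± 0.32 (SE; p = 0.0407 in edgeR's test, adjusted p = 1).

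Syt4 ran from 0 to 1427 CPM (median 158.8) in SN clones and from 116.2 to 1879 CPM (median 341.2) in N clones. Every N clone stood at 116.2 CPM or higher, while SN clones, with fewer kept cells on average, spread over the whole range (log2 difference −0.70 ± 0.44; edgeR p = 0.115, adjusted p = 1). At equal depth per cell this difference was 0.05, and on plates 1, 2 and 3 alone it was −0.92, 0.01 and −1.10 (edgeR p = 0.0548 on plate 3, adjusted p = 1). Vamp2 ran from 13.0 to 374.2 CPM (mean 117.6 ± 75.8) in SN clones and from 2.51 to 278.5 CPM (mean 133.6 ± 65.8) in N clones (−0.26 ± 0.29). Syt1 ran from 1.74 to 769.0 CPM (median 117.3) in SN clones and from 52.4 to 297.1 CPM (median 94.1) in N clones (0.25 ± 0.32).

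Syn1 had a median of 29.4 CPM in SN clones and 24.2 CPM in N clones (0.21 ± 0.43), and Syp 75.3 and 73.9 CPM (0.24 ± 0.44). Slc17a7 had a median of 8.81 CPM in SN clones and 10.4 CPM in N clones (0.15 ± 0.72), with 7 SN and 3 N clones at 0. Slc17a6 had a median of 8.88 CPM in SN clones and 9.27 CPM in N clones (0.27 ± 0.85), with 14 of 42 SN and 3 of 20 N clones at 0. Its highest SN clone had 369.0 CPM and its highest N clone 78.6 CPM. The median log2 difference of the 8 genes was 0.18, beside −0.11 over all genes tested. The difference itself was tested between plates, and no member passed (edgeR p between 0.298 for Syt1 and 0.907 for Slc17a7; adjusted p = 1; 0% of 11914 genes called).

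**Figure D3:**
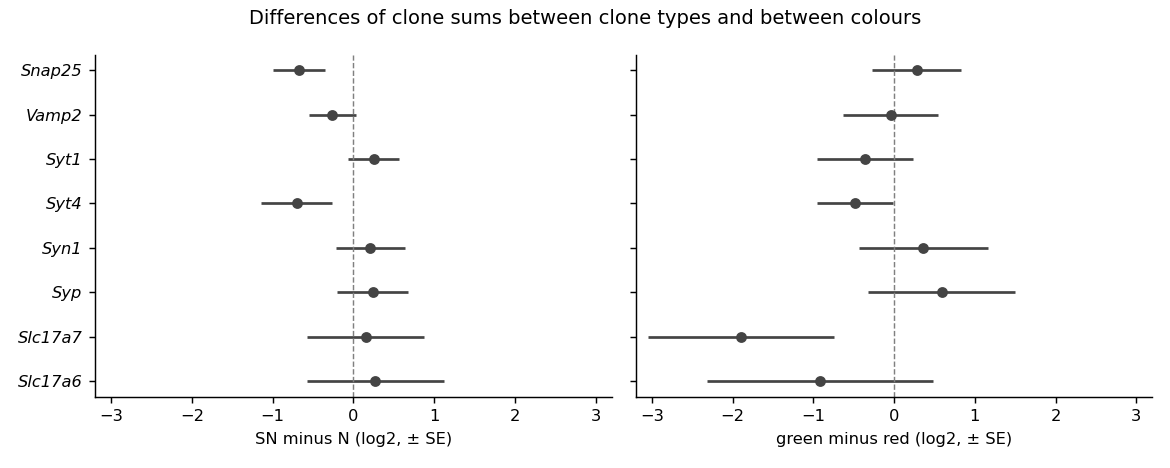
Log2 differences of clone sums with their SE for SN minus N clones (left, 42 against 20 clones) and green minus red parts of the same clone (right, 45 clones). Snap25 and Syt4 lie furthest from 0 on the left and Slc17a7 on the right, none past the threshold.

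Plates differed in the level of some members in SN and N clones alike. Syn1 had a median of 18.4 CPM in SN clones and 16.5 CPM in N clones on plate 1, 13.4 and 18.0 CPM on plate 2, and 87 and 95.3 CPM on plate 3. The same clone type was thus several times higher on plate 3. Of its exon and intron counts together over all kept cells, introns held 73.5% on plate 1, 71.3% on plate 2 and 48.5% on plate 3. Araf, a kinase gene that overlaps an exon of Syn1 on the opposite strand in GENCODE M21, had medians of 61.1 CPM in SN clones and 60.7 CPM in N clones on plate 3, against 207.4 and 118.8 CPM on plate 1. Whether the counting used strand is not given in the sources used here. Slc17a6 went the other way: 17.4 CPM in SN clones and 22.2 CPM in N clones on plate 1, 7.16 and 1.36 CPM on plate 2, and 0 and 3.59 CPM on plate 3, where 7 of the 13 SN clones had none. The labels give the plate only as a number, and differences between plates were not tested.

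**Figure D4:**
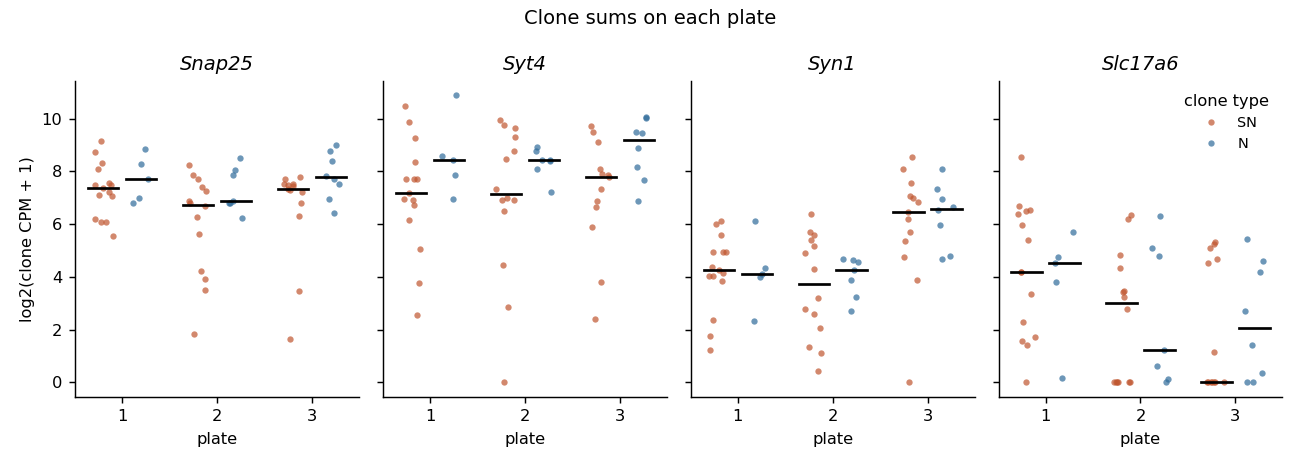
Clone sums as log2(CPM + 1) of Snap25, Syt4, Syn1 and Slc17a6 on plates 1, 2 and 3, with SN clones left and N clones right on each plate and medians as bars. Syn1 is highest on plate 3 in both clone types, and the Slc17a6 median of SN clones is 0 there.

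Green and red cells of the same clone carry opposite products of the recombination of chromosome 11, on which Vamp2 lies. In 45 clones with cells of both colours, none of the 8 genes passed edgeR's test of green against red (0% of 7437 genes called, 1.64% with an unadjusted p below 0.05). Vamp2 had a median of 87 CPM in green and 122.5 CPM in red parts, and was higher in green in 23 clones and in red in 22 (log2 difference, green minus red, −0.04 ± 0.59). The widest estimate was that of Slc17a7, with a median of 0.458 CPM in green and 8.10 CPM in red parts. It was higher in green in 13 clones, higher in red in 24 and equal in 8 (−1.90 ± 1.15; edgeR p = 0.103, adjusted p = 1). Most of these clones were SN: 7 of 31 SN clones were higher in green and 18 in red, against 6 and 6 of 14 N clones. Snap25 (0.28 ± 0.55), Syn1 (0.36 ± 0.80) and Syp (0.59 ± 0.91) were above 0, and Syt1 (−0.36 ± 0.59), Syt4 (−0.48 ± 0.47) and Slc17a6 (−0.92 ± 1.40) below.

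The colour difference was not shown to depend on the clone type for any member (0% of 7437 genes called, all 8 with adjusted p = 0.999 in edgeR's test). The widest was Slc17a6, for which the colour difference in SN clones minus that in N clones was −4.14 ± 2.53 (edgeR p = 0.106). Green and red parts at 0 made up much of its data, with 23 of 45 green and 19 of 45 red parts without a count.

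Clone size, the number of cells the labels give a clone, was tested as its log2 in the same clones. No member passed edgeR's test for it (0% of 11914 genes called, 2.58% with an unadjusted p below 0.05). Per doubling of clone size, the estimates were −0.74 ± 0.41 for Syn1 (edgeR p = 0.0712, adjusted p = 1), −0.64 ± 0.83 for Slc17a6 and 0.75 ± 0.60 for Slc17a7, and the other 5 lay between −0.35 for Syt4 and 0.34 for Syp.

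Clones of the same plate and type were then compared with each other, since cells of a clone descend from 1 progenitor. Over the cells of the 62 clones, limma's F test on log2(CPM + 1) with a depth term called 1.75% of 9650 genes. Of the 8 members it called Syt4 (F = 1.94, adjusted p = 0.0356). This test sets clones against the cells within them. Organoids are not labelled, so a difference between clones cannot be told apart from one between organoids. The share of variance between clones, as the intraclass correlation, was 0.193 for Syt4, above 98% of all genes tested, whose median was 0.032. The SD between clones was 1.48 and that within clones 3.03 on the log2 scale, so cells of 1 clone still varied more than clones did. The call was lost with at least 2000 detected genes per cell (adjusted p = 0.0606) and with the neuronal score as a further term (adjusted p = 0.0683, an alternative chosen after seeing the data). Over the 7 alternatives the intraclass correlation lay between 0.174 and 0.218 and the adjusted p between 0.0117 and 0.0683.

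The cells show the spread of Syt4. Among the 25 clones with at least 4 kept cells, those with the highest and lowest means of log2(CPM + 1) are named here. Clone 58 (N, plate 3) had Syt4 between 273.5 and 3607 CPM in its 4 cells. Clone 57 (N, plate 3) had it between 90.3 and 1029 CPM in its 5. Clone 5 (SN, plate 1) had 85.7 to 864.9 CPM in its 5 cells. At the low end, clone 8 (SN, plate 1) had 0 to 19.1 CPM in its 4 cells with a count in 2 of them. Clone 40 (SN, plate 2) had 0 to 88.5 CPM with a count in 2 of 4. The test compared clones within a plate and type, so of these high and low clones only 5 and 8 were set against each other. The mean neuronal score was 4.53, 5.6 and 4.88 in clones 58, 57 and 5, and 5.11 and 2.27 in clones 8 and 40. In 11 of the 25 clones every cell had a count of Syt4, and in none of them was it without one in every cell.

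**Figure D5:**
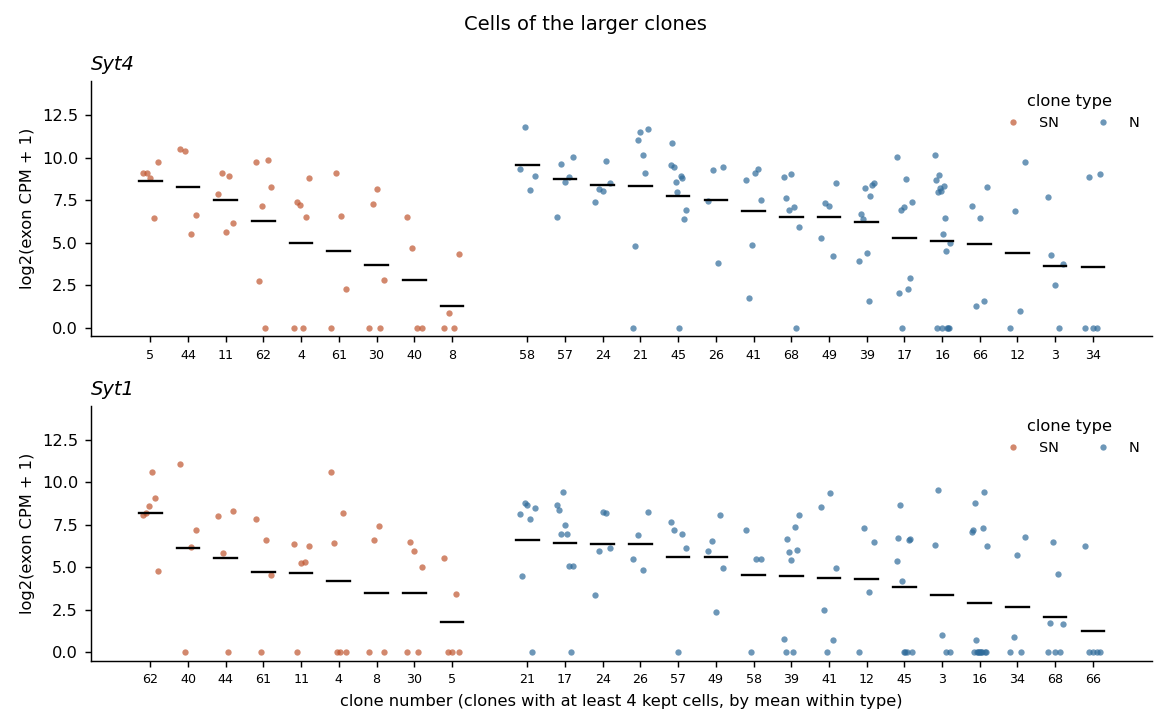
Syt4 (top) and Syt1 (bottom) as log2(exon CPM + 1) in the cells of the 25 clones with at least 4 kept cells, SN clones left and N clones right, each ordered by the clone mean (black bar). Clones 5, 58 and 57 lie high for Syt4 with no cell at 0, and clone 8 low. Clones of different plates stand side by side. Every cell had a count in 11 of the 25 clones for Syt4 and in 4 of them for Syt1.

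Of the other members, Snap25 had the next highest intraclass correlation (0.137; limma p = 0.00912, adjusted p = 0.147). Syp had 0.066, Syn1 0.059, Syt1 0.038, Slc17a6 0.036, Vamp2 0.016 and Slc17a7 −0.044, with adjusted p between 0.4 and 0.88 in limma's test. Over the 62 clones, Snap25 was counted in every kept cell of 34 clones and in some cells of 28. Slc17a7 was counted in every cell of 7 clones, in no cell of 10 and in some cells of 45, and Slc17a6 in every cell of 4, in none of 17 and in some of 41.

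Members were about as close to each other across cells as genes at large. The 28 pairs had rank correlations between 0.03 and 0.35 over the cells at equal depth, with a median of 0.16, beside 0.15 over all pairs of the 6942 genes. Syt1 and Syp were the closest pair (0.35), with Syt1 counted in 84.2% of the cells that had Syp. Slc17a6 stood furthest off, with a median of 0.06 to the other members. The number of genes detected at equal depth, from 956 to 10117 per cell, moved with all of them, at rho between 0.23 for Slc17a6 and 0.42 for Syp, beside a median of 0.40 over genes. The genes most like each member in these cells were Sh3gl2 (0.42), Larp4 and Wdr47 for Snap25, and Zcchc18 (0.36), Snap91 and Mapt for Vamp2. Sh3gl2 and Snap91 act in the retrieval of vesicles by endocytosis. They included Mapk8ip2 and Sv2a for Syt1, of which Sv2a is a vesicle membrane protein, and were Zdbf2 (0.39), Sf3a1 and Nbea for Syt4. For Syn1 they were Mast1 (0.42), Trim67 and Fto, for Syp 1500011B03Rik (0.43), Scg5 and C1qbp, for Slc17a7 Dhx29 (0.39), Pdrg1 and Acot7, and for Slc17a6 Cttnbp2nl (0.36), Gpr85 and Psd2.

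The other genes of the machinery, 60 in 7 lists, gave the setting. In SN against N clones, 55 were tested and 0 passed in either direction, with a median log2 difference of −0.11, equal to that of all genes. Rab3a, a vesicle GTPase, had the smallest p, with a median of 93.7 CPM in SN clones and 147.9 CPM in N clones (−0.65 ± 0.27; edgeR p = 0.0197, adjusted p = 1). Scamp5 (−0.98 ± 0.46) and Syn2 (−0.84 ± 0.54) followed on the lower side, and Cadps2 (1.79 ± 1.03), Syt9 (1.47 ± 1.02) and Rims2 (1.07 ± 0.75) on the higher, all with adjusted p = 1 in edgeR's test. For Cadps2 and Syt9 the medians lay the other way, at 0.179 CPM in SN clones and 0.883 CPM in N clones for Cadps2 and at 0.352 CPM in SN clones and 2.33 CPM in N clones for Syt9. Their highest SN clones had 151.6 and 93.9 CPM. Green against red and clone size called 0 of 45 and 0 of 55 of them, and clone spread 0 of 45, with a median intraclass correlation of 0.033.

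Some of these genes were counted in more cells than most members. Syt11 was counted in 91.9% of kept cells, Rab3a in 85%, Dnajc5, a vesicle chaperone, in 83% and Cplx2, a complexin, in 79.4%. The best detected of the active zone genes were Pclo (73.3%) and Ppfia2 (66.4%), and of the endocytosis genes Dnm3 (75.7%) and Snap91 (73.7%). The other SNARE gene Snap47 (68.0%) stood below Snap25 and Vamp2. The GABA and monoamine transporters Slc32a1 (14.6%) and Slc18a2 (16.6%) stood below both glutamate transporters. Along the neuronal score, the 44 genes counted in at least 25% of cells had a median rho of 0.08, with Syt5 (0.23) and Ppfia2 (0.22) highest and Vamp3 (−0.19) lowest. All 6942 genes had a median of −0.01 and a 75th percentile of 0.05. Of the 44 genes, 37 were above 0, a count that was not set beside the share of all genes above 0.

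Intron counts, which can come from RNA not yet spliced, differed widely between members. Of exon and intron counts together, introns held 66.8% for Syt1, 61.6% for Syn1, 39.8% for Snap25, 35.7% for Slc17a6 and 29.5% for Syp. They held 5.38% for Slc17a7, 0.14% for Vamp2 and 0.02% for Syt4, beside 30.3% over all genes. Slc17a6 had intron counts in 50.6% of cells, 67 of them without an exon count, which is more cells than had an exon count (32.8%). Syt1 had intron counts in 86.6% of cells, 52 of them without an exon count. GENCODE M21 places other genes inside introns of these genes, among them Gm5136 in Syt1, Timp1 in Syn1 and Gm45072 in Slc17a6, and their part in such counts was not tested. In SN against N clones, intron counts gave 2.01 for Slc17a6 (edgeR p = 0.0416, adjusted p = 0.772), with the sign of its exon value. They gave −0.66 for Syt1, −1.40 for Syn1, −1.24 for Syp and 0.09 for Snap25, each opposite in sign to the exon value. None passed the threshold in edgeR's test, and the other 3 members were not tested in introns.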

How the data were processed

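The authors deposited raw exon counts and raw intron counts per gene and cell, not normalized, as 2 tables of 55359 gene IDs by 287 cells. The submitters' processing notes name genome build GRCm39, R 4.4.0 and STAR 2.7.9a; their roles, the annotation, strand and whether molecular identifiers were counted are not given in the sources used here. Symbols came from a table that matched 52083 of the IDs.

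Labelled cells in which 1000 or more genes were counted were kept (247, of which 131 SN and 116 N); 225 of them had the 100000 exon counts needed for thinning. Highest correlation between any 2 cells was 0.888, so no library was counted as a copy. Counts of clones with at least 2 kept cells were summed and tested with edgeR 4.0.16 (TMM, filterByExpr, quasi-likelihood F test; plate and clone type as terms, or clone as a block for green against red; SE is the log2 difference over the root of F), and with DESeq2 1.42.0 as an alternative. Clone 45, on plates 2 and 3, was put on plate 3. Clone spread used limma 3.58.1 with a trend on log2(CPM + 1) of genes counted in at least 25% of cells. R 4.3.3 ran the tests. P-values were adjusted by Benjamini-Hochberg over all genes tested, with 0.05 as the threshold, and the scripts were tested on simulated data. An unnamed ID held 16.5% of exon counts and the mitochondrial genes 5.39%; both stayed in the totals except in an alternative. Counts of cells are limited by depth, and intervals cover counting error only.

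The 8 members and the lists were chosen with earlier results of these data known. Other genes were named by rule: per member the 3 with the highest rank correlation, from the machinery lists all that passed, or else the 3 smallest p on each side of SN against N, and the 2 best detected per list; some genes so chosen are not reported here. Araf and the genes that mark other cell types were named after their values were seen, as were the machinery genes singled out for their rank along the score.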

Additional observations from a re-analysis of the deposited data

Results flagged for a closer look

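For 3 cells the labels name no clone, and none of them was used in a comparison. In these cells 14 values of members rested on more than the 3 counts that a count of 0 allows, which is why they are listed, in CPM. The first cell (1689914 exon counts, 4954 genes) had 2198 CPM of Syt4, 526.7 of Snap25, 184.6 of Syp, 84.03 of Syn1 and 4.14 of Vamp2, and no count of Syt1, Slc17a7 or Slc17a6. The second (5976683 exon counts, 13298 genes) had all 8 genes, with 378.1 CPM of Syt4, 239.9 of Vamp2, 186.1 of Syp, 124.1 of Snap25, 88.18 of Syn1, 38.7 of Syt1, 11.9 of Slc17a7 and 1.34 of Slc17a6. The third held 2257 exon counts in all, of which 8 were of Snap25 (3545 CPM) and none of the other members. The cells carry no label of type, so their values have no group to be set against. Neither the difference of SN minus N between plates nor that of green minus red between clone types passed the threshold for a member.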

How the results depend on the processing

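Counts of genes called depended most on the filter on low counts. With no filter, edgeR called 6861 of 39336 genes for SN against N, 3990 for its difference between plates, 3710 for clone size and 1 for green against red, none of them a member; main values were 0. For SN against N, 2 genes were called with DESeq2's test and 2 with at least 2000 detected genes per cell; for clone size, 7 with DESeq2's test and 1 without clone 16; for green against red, 1 with DESeq2's size factors. Clone spread called 309 genes with a pseudocount of 10, 52 in cells thinned to 100000 exon counts and 1115 with genes counted in at least 5% of cells, against the 1.75% of 9650 genes reported above. The number of members with a count in 50% of the lowest bin was 2 with neuronal genes alone as the score and 2 in cells thinned to 20000 exon counts, against 5.

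No member passed the threshold under any alternative run for SN against N, its difference between plates, green against red, its difference between clone types or clone size, and 35 values changed sign. For SN minus N these were, with intron counts, Snap25 0.09, Syt1 −0.66, Syn1 −1.40 and Syp −1.24; with exon plus intron counts, Syt1 −0.27, Syn1 −0.69 and Syp −0.02; in clones of labelled size 4 to 6, Vamp2 0.19, Syn1 −0.51 and Slc17a6 −0.39; on plate 1 alone, Syt1 −0.47, Vamp2 0.05 and Slc17a7 −0.05; on plate 2, Syt4 0.01 and Slc17a6 −0.26; on plate 3, Slc17a7 −0.05; thinned, Syt4 0.05; with at least 500 genes, Syn1 −0.04; and with no plate term, Syn1 −0.06. For green minus red they were Vamp2 0.08 thinned, 0.19 with at least 2000 and 0.10 with at least 500 genes, and in N clones alone Snap25 −0.24, Syt4 0.03, Vamp2 0.17, Syp −0.14 and Slc17a6 1.10. The difference of green minus red between clone types was 0.49 for Vamp2 thinned. For clone size they were Snap25 −0.06 and Syt1 −0.03 with DESeq2's size factors and again with its test, Vamp2 −0.04 and Syp −0.08 thinned, and Syt1 −0.11 in SN clones alone. The cause was not tested.

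No paired analysis was possible because the cell and clone numbers of the labels only name samples and no number is shared by an SN and an N clone; green against red was blocked by clone. The DESeq2 fits for green against red and for its difference between clone types were not run. Depth limits the shares of cells with a count: at 100000 exon counts per cell Syn1 was counted in 50.2% of cells, Slc17a7 in 30.7% and Slc17a6 in 24.4%.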
